A study of Mus musculus with 4 samples.

Results

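Genes of the response to low oxygen and of glycolysis were followed across 4 RNA-seq libraries of mouse epiblast stem cells (EpiSCs), which are pluripotent cells cultured from the early embryo. The set holds 31 genes of the 22686 in the deposited table, and all 31 were among the 11471 genes whose mean FPKM was 1 or more (FPKM is a fragment count scaled to transcript length and library size). The members were chosen by name, around Plod2, because Plod2 was much lower in 1 of the 4 libraries than in the others. The values of Plod2 in that contrast therefore describe the choice and are given without a test. The other members were named with earlier results of these data known, so their counts in that contrast describe the set as well.

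The cells came from female embryos of a cross between C57BL6/J and F1 animals of JF1 x C57BL6/J, at stage E6.5, and the series describes the study as one of fetuses deficient for SmcHD1, a chromatin protein of the inactive X chromosome. Each library had 1 combination of Smchd1 genotype and Xist mutation: Smchd1 +/+ XistdeltaA/+, Smchd1 MD1/MD1 XistdeltaA/+, Smchd1 +/+ Xist1lox/+ and Smchd1 MD1/MD1 Xist1lox/+. Xist is the noncoding RNA that coats the inactive X chromosome, and all 4 libraries carried a heterozygous Xist mutation, so none was wild type at both genes. There was 1 library per genotype, and the labels do not say how many cell lines or embryos lay behind it, so no difference has a replicate check. Values are given below in that order of libraries.

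Cells adapt to low oxygen through the transcription factor HIF, whose alpha subunit is hydroxylated by the Egln enzymes when oxygen is present and then degraded through Vhl. When oxygen is scarce, HIF binds short DNA motifs near its targets and raises genes for glucose uptake, glycolysis, blood vessel growth, mitophagy and collagen hydroxylation. Primed pluripotent cells such as EpiSCs are known for relying on glycolysis.

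The core of the HIF binding motif is ACGTG or GCGTG, and it was searched on both strands (as CACGT or CACGC on the other) in the 250 bases before the annotated start of each gene, in the promoter table of RefSeq, build GRCm38.p6. The search also takes in CACGTG, the E-box of other factors. Of the 31 members, 28 had an entry, 1 of them under a newer symbol. In the first listed window, 22 of the 28 (78.6%) held the motif, against 38.6% of 27025 genes in the table and 59.1% of 8724 of them whose mean FPKM was 1 or more. CG dinucleotides numbered 16.5 per window in the members and 17 in those expressed genes, as medians. A match describes the letters and not a bound site. Bnip3 and Ldha had 5 matches each, the most of any member. Of these, 2 in Bnip3 are the strands of 1 CACGTG, and 4 in Ldha lie in CACGTG. The windows below belong to the 5 matched members with the lowest ratio of MD1/MD1 over +/+ with XistdeltaA/+, to Bnip3, and to Gpi1, the lowest member with no match in any window. Each runs 5' to 3' on the strand of the gene, and capitals mark the motif. They lie at chr11:78322823-78323072, plus strand (Aldoc), chr2:71872974-71873223, plus strand (Pdk1), chr6:125165774-125166023, minus strand (Gapdh), chr8:124949255-124949504, minus strand (Egln1), chr14:45318573-45318822, minus strand (Ero1l), chr7:138909507-138909756, minus strand (Bnip3) and chr7:34230337-34230586, minus strand (Gpi1), in GRCm38.p6.
Aldoc: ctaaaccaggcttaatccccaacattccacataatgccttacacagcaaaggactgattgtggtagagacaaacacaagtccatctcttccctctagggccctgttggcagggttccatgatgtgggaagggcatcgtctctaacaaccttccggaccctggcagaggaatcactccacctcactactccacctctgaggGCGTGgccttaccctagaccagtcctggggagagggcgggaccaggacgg
Pdk1: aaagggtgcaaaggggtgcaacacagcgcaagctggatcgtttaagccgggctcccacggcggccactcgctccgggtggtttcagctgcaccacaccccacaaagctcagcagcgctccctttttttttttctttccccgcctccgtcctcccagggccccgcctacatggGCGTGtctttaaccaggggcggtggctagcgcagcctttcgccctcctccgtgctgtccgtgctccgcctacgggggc
Gapdh: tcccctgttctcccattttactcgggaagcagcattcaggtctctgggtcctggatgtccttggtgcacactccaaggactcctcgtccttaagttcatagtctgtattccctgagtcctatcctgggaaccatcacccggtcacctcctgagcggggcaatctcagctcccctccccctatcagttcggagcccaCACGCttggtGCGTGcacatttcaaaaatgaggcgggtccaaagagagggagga
Egln1: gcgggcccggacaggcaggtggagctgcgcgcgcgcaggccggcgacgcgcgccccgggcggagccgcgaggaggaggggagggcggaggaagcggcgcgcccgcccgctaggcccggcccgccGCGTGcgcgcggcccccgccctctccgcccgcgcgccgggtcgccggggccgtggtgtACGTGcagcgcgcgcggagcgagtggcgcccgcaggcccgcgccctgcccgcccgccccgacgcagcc
Ero1l: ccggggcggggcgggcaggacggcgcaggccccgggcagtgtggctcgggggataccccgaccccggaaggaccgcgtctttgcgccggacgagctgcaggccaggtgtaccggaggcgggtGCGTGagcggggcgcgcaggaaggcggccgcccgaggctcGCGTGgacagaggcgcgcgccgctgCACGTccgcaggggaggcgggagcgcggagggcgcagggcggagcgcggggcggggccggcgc
Bnip3: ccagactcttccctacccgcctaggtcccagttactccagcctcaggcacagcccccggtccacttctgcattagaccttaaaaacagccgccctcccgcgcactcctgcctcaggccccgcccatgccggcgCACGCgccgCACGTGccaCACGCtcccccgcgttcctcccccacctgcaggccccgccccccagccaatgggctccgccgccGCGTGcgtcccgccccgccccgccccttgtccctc
Gpi1: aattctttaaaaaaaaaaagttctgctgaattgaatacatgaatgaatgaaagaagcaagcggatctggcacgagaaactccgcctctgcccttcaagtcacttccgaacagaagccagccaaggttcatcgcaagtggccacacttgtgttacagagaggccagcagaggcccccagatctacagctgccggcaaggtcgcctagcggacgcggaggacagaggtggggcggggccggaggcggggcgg
Aldoc and Pdk1 each held 1 match, Gapdh and Egln1 held 2 and Ero1l held 3.

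Most of the members were highest in +/+ XistdeltaA/+ and lowest in MD1/MD1 XistdeltaA/+, with both Xist1lox/+ libraries between them. The highest of the 4 values was in +/+ XistdeltaA/+ for 26 of 31 members, against 37.3% of the 11471 genes. The lowest was in MD1/MD1 XistdeltaA/+ for 24 members, against 33.2% of genes, and both held for 20 members, against 18.2% of genes. All 31 members were lower in MD1/MD1 than in +/+ with XistdeltaA/+, against 55.0% of genes, whereas 18 were lower in the same contrast with Xist1lox/+, against 49.2%. The counts with XistdeltaA/+ rest on the contrast in which Plod2 chose the set, so they describe it and carry no test. In bulk RNA, fewer cells of a type and less RNA per cell cannot be told apart.

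**Figure D1:**
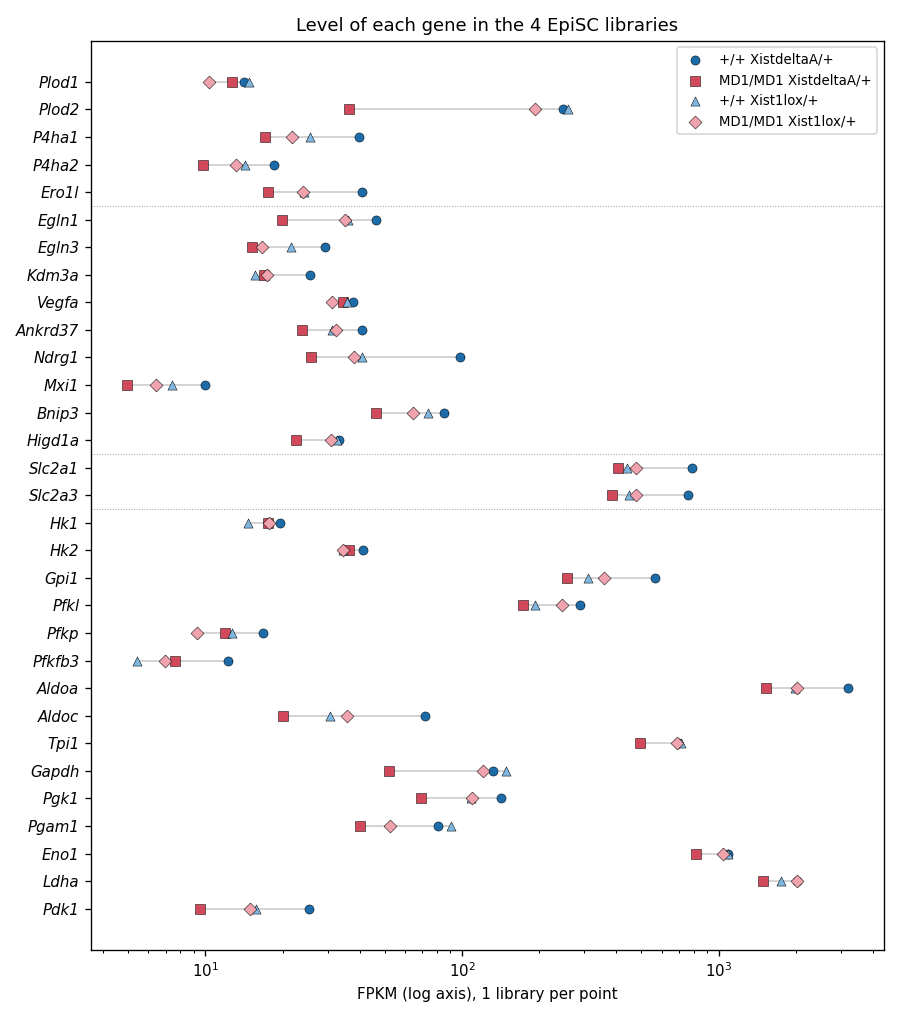
FPKM of each of the 31 genes (log axis) in the 4 libraries, 1 point per library, with grey lines joining the lowest and highest value and dotted lines separating the 4 groups of roles. The square for MD1/MD1 XistdeltaA/+ is the lowest point for 24 genes, and the dark circle for +/+ XistdeltaA/+ is the highest for 26.

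The genotype labels were set beside the levels of their own genes. Smchd1 had an FPKM of 27.0, 6.68, 20.9 and 5.98, and so was lower in both MD1/MD1 libraries. Xist had 12.1, 38.3, 10.5 and 28.9, and so was higher in both MD1/MD1 libraries. Its paternal share was 99.5%, 99.9%, 99.9% and 99.8%. Neither value separated XistdeltaA/+ from Xist1lox/+, so the Xist labels were not checked in this way. Allele-assigned reads, those that cover a variant between the parental strains, numbered 7301034 to 8008500 per library. Primed epiblast markers summed to an FPKM of 1575 to 2110 per library over 11 genes, of which T and Cer1 had a mean under 1. Of these markers, 3 passed 2-fold in a comparison: Sox2 had 30.5, 92.8, 91.4 and 65.9, Dnmt3b had 144, 320, 242 and 268, and Lefty2 had 84.1, 71.1, 14.9 and 120. Macrophage markers summed to an FPKM of 23.8, 980, 349 and 314 (9 of 10 listed genes were in the table), and all 8 whose mean FPKM was 1 or more were highest in MD1/MD1 XistdeltaA/+. Tyrobp and Emr1 were listed at 0 in +/+ XistdeltaA/+, and Lyz2 had 0.38 there and 799 in MD1/MD1 XistdeltaA/+. Fibroblast markers summed to 43.6, 122, 57.2 and 58.4, and 8 of 9 were highest in MD1/MD1 XistdeltaA/+. The macrophage sum was thus lowest in the library where 26 members were highest, and highest in the library where 24 members were lowest. The part of these markers in the results on the members was not tested.

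The collagen hydroxylases and the oxidative folding enzyme Ero1l made up the group around Plod2. Plod2 (mm9 chr9:92437061-92503265, plus strand), a lysyl hydroxylase that modifies collagen telopeptides for crosslinking, had an FPKM of 247, 36.2, 258 and 192. It was 6.82-fold lower in MD1/MD1 than in +/+ with XistdeltaA/+ and 1.35-fold lower with Xist1lox/+. Against the mean of the 3 other libraries, Plod2 had rank 4 from the bottom of the 11471 genes, behind Rpl10a, Htr7 and Ackr4. Plod1 (chr4:147283862-147310885), the related enzyme of helical lysines, had 14.1, 12.7, 14.9 and 10.4. Plod1 was lowest in MD1/MD1 Xist1lox/+, and its 4 values lay within 1.43-fold of each other. Plscr1, a phospholipid scramblase gene, was the only gene of that mean level that starts within 500 kb of Plod2, and had 4.38, 4.81, 7.37 and 5.96.

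P4ha1 and P4ha2 encode the catalytic subunits of prolyl 4-hydroxylase, which stabilises the collagen triple helix. P4ha1 (chr10:58786044-58836052) had an FPKM of 39.6, 17.2, 25.6 and 21.8, and was 2.31-fold lower in MD1/MD1 than in +/+ with XistdeltaA/+. P4ha2 (chr11:53914426-53945169) had 18.5, 9.84, 14.3 and 13.2. Both genes ranked the 4 libraries in the same order, with the Xist1lox/+ pair in the middle. Ero1l (chr14:45902762-45938247), the oxidase that recharges protein disulfide isomerase, had 40.6, 17.6, 24.2 and 24.0, so the Xist1lox/+ pair differed by 1.01-fold and the XistdeltaA/+ pair by 2.31-fold.

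**Figure D2:**
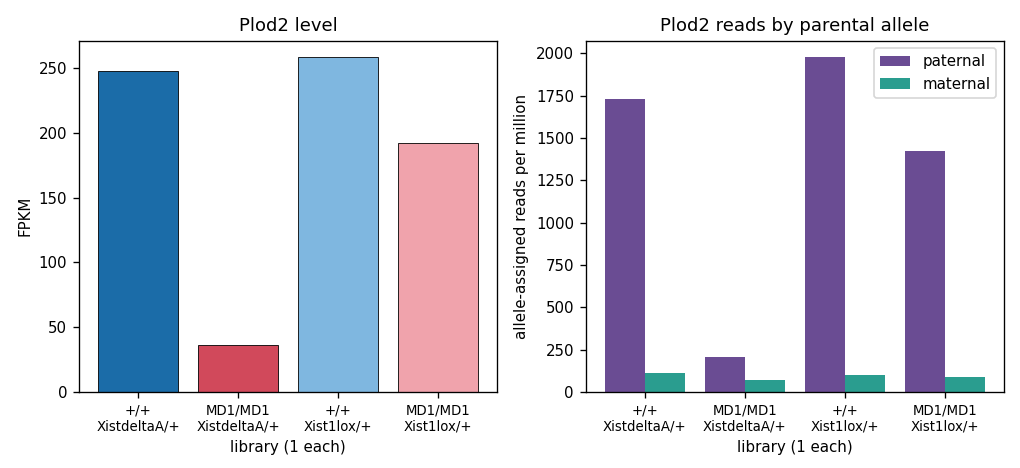
Plod2 in the 4 libraries, as FPKM (left) and as allele-assigned reads from the paternal and the maternal allele, scaled to the library sum of such reads (right), 1 library per bar and no error bars. The second library stands low on the left at 36.2, and on the right the paternal bar is lower there by more than the maternal bar.

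Plod2 was read mostly from the paternal allele in 3 libraries and less so in the fourth. Its paternal share was 93.8% of 14429 allele-assigned reads in +/+ XistdeltaA/+, 74.5% of 2238 in MD1/MD1 XistdeltaA/+, 95.3% of 16229 in +/+ Xist1lox/+ and 94.0% of 11067 in MD1/MD1 Xist1lox/+. Exact Clopper-Pearson intervals at 95%, which cover counting error only here and below, ran from 72.6% to 76.3% in MD1/MD1 XistdeltaA/+ and from 93.4% to 94.2% in +/+ XistdeltaA/+. Paternal reads numbered 13531, 1667, 15467 and 10406, and maternal reads 898, 571, 762 and 661. Scaled to the sum of allele-assigned reads, the log2 ratio of MD1/MD1 over +/+ with XistdeltaA/+ was -3.05 for the paternal allele and -0.69 for the maternal allele. These values belong to the contrast that chose Plod2 and are given without a test. The 16 genes with at least 100 such reads within 5 Mb of Plod2 had median paternal shares of 48.8%, 47.1%, 50.2% and 50.3%, and single genes ranged from 23.7% to 78.9%.

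Sensors and responders of the hypoxia pathway formed a group of 9 members. All 9 were highest in +/+ XistdeltaA/+, against 37.3% of genes, and 7 were lowest in MD1/MD1 XistdeltaA/+, against 33.2%. These counts rest on the contrast that chose the set. Egln1 (chr8:127432487-127473154), the main prolyl hydroxylase of HIF alpha, had an FPKM of 46.1, 19.9, 35.9 and 35.1. The Xist1lox/+ pair of Egln1 differed by 1.02-fold and the XistdeltaA/+ pair by 2.31-fold. Egln3, a relative of Egln1 that low oxygen induces, had 29.4, 15.3, 21.6 and 16.6. Ndrg1 (chr15:66760880-66801203), a stress-response gene and a strong HIF target, had 98.1, 25.7, 40.6 and 38.1. Ndrg1 was 3.82-fold lower in MD1/MD1 than in +/+ with XistdeltaA/+ and 1.07-fold lower with Xist1lox/+, and its +/+ XistdeltaA/+ value stood 2.42-fold above that of +/+ Xist1lox/+.

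Bnip3, a mitophagy receptor, had an FPKM of 85.1, 46.2, 73.9 and 64.7. Mxi1, a MYC antagonist, had 9.94, 4.95, 7.39 and 6.41, and Ankrd37 had 40.8, 23.7, 31.0 and 32.2. Higd1a, a mitochondrial inner membrane protein, had 33.2, 22.6, 32.6 and 30.8, so that it was low in MD1/MD1 XistdeltaA/+ alone. Kdm3a and Vegfa departed from the pattern. Kdm3a, a histone H3K9 demethylase, had 25.5, 16.9, 15.6 and 17.4, so that it was high in +/+ XistdeltaA/+ and similar in the other libraries. Vegfa, the angiogenic growth factor, had 37.6, 34.3, 35.7 and 31.1, the smallest difference of any member between the XistdeltaA/+ libraries, at 1.10-fold.

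Both glucose transporters were among the 6 most abundant members. Slc2a1 (chr4:118781350-118809934), which encodes GLUT1, had an FPKM of 790, 404, 441 and 479. Slc2a3 (chr6:122677827-122692763), which encodes the high-affinity carrier GLUT3, had 760, 385, 447 and 475. In both transporters +/+ XistdeltaA/+ stood apart from the other 3 libraries, and MD1/MD1 was lower than +/+ by 1.96-fold and 1.97-fold with XistdeltaA/+ but higher by 1.09-fold and 1.06-fold with Xist1lox/+.

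Of the 15 genes of glycolysis and its branch points, 6 were at least 2-fold lower in MD1/MD1 than in +/+ with XistdeltaA/+, against 1.82% of genes. That contrast chose the set. Gpi1 (chr7:34986346-35015355), the isomerase that follows hexokinase, had an FPKM of 563, 256, 310 and 356. Aldoa (chr7:133938748-133943961), the main aldolase, was the most abundant member with 3188, 1536, 1988 and 2023. Aldoc (chr11:78136575-78141280), the brain-type aldolase and a HIF target, had 71.8, 20.1, 30.7 and 35.8. Aldoc and Ndrg1 followed Plod2 as the lowest members of that contrast, with Aldoc 3.58-fold lower in MD1/MD1.

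Gapdh (chr6:125111870-125116485), which oxidises glyceraldehyde 3-phosphate, had 132, 52.1, 148 and 121, and so was low in MD1/MD1 XistdeltaA/+ and similar in the other 3 libraries. Pgk1 (chrX:103382439-103399038), phosphoglycerate kinase and the X-linked member, had 142, 69.4, 109 and 109. No allele-assigned read of Pgk1 was listed in any library, so its parental split is not given. Pdk1 (chr2:71711281-71741915), the kinase that shuts off pyruvate dehydrogenase, had 25.3, 9.51, 15.7 and 14.9, and was 2.66-fold lower in MD1/MD1 with XistdeltaA/+ and 1.06-fold lower with Xist1lox/+.

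Ldha (chr7:54101174-54110997), lactate dehydrogenase A, had 2014, 1484, 1755 and 2013. Eno1 (chr4:149611306-149622982), enolase, had 1093, 816, 1091 and 1041. Tpi1 (chr6:124760610-124764314), triosephosphate isomerase, had 698, 494, 713 and 686. These 3 abundant enzymes were lowest in MD1/MD1 XistdeltaA/+, by 1.34 to 1.41-fold against +/+, and the other 3 libraries lay closer together. Pgam1, phosphoglycerate mutase, had 80.6, 40.0, 90.6 and 52.3, and was low in both MD1/MD1 libraries.

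Pfkfb3 (chr2:11393058-11475556), which makes the allosteric activator of phosphofructokinase, had 12.3, 7.63, 5.43 and 6.96, so that it was lowest in +/+ Xist1lox/+. Of the phosphofructokinase subunits, Pfkl had 290, 173, 193 and 246 and Pfkp had 16.7, 12.0, 12.8 and 9.32. The hexokinases, which trap glucose in the cell, differed little: Hk1 had 19.6, 17.5, 14.6 and 17.7, and Hk2 had 41.1, 36.5, 34.2 and 34.3. Gapdh, Pgk1, Pgam1, Eno1, Aldoa, Ldha and Tpi1 are known to have processed pseudogenes, so their values are uncertain where reads could be assigned to a copy.

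Ratios between libraries are given as differences of log2(FPKM + 1), and a member was counted at a difference of at least 2-fold. With XistdeltaA/+, 11 of 31 members (35.5%) were at least 2-fold lower in MD1/MD1 than in +/+, against 1.82% of the 11471 genes. They were Plod2, Ndrg1, Aldoc, Pdk1, Gapdh, Egln1, Ero1l, P4ha1, Gpi1, Aldoa and Pgk1. None was 2-fold higher, against 3.91% of genes. The median log2 ratio was -0.88 over the members and -0.05 over all genes. At 1.5-fold, 21 members were lower, against 9.29% of genes. Since Plod2 chose the set in this contrast, these counts describe it and carry no test. For some of the 11, such as Gpi1 and Egln1, local strain sequence also differed within the pair.

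With Xist1lox/+, no member was 2-fold lower (0.375% of genes) or 2-fold higher (0.445%) in MD1/MD1 than in +/+. Pgam1 was the member that passed 1.5-fold on the lower side, against 1.62% of genes, with a log2 ratio of -0.78. The median log2 ratio of the members was -0.06, and the members ranged from -0.78 (Pgam1) to 0.34 (Pfkl). Both pairs share no library, and with 1 library per genotype the difference between their ratios was not tested.

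**Figure D3:**
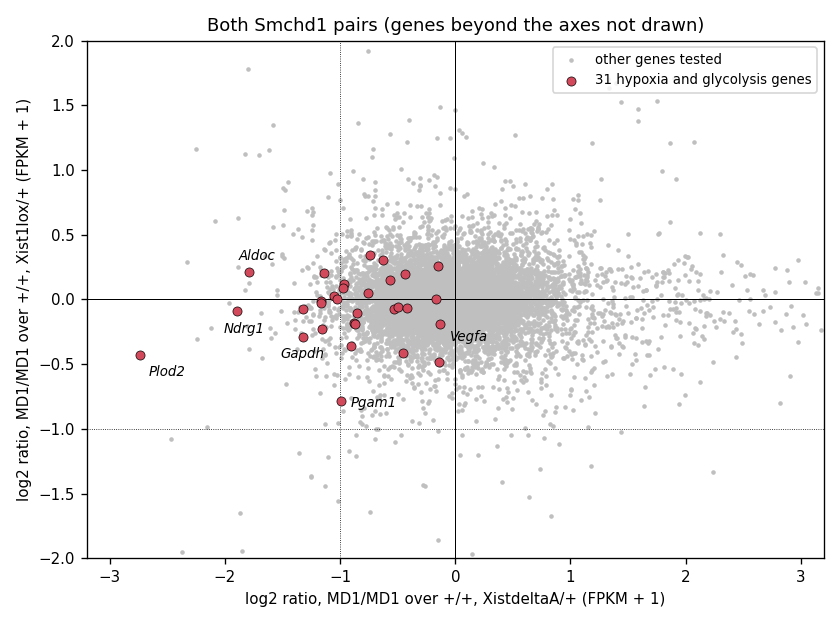
Difference of log2(FPKM + 1) between MD1/MD1 and +/+ with XistdeltaA/+ (horizontal) and with Xist1lox/+ (vertical), with the 31 genes in red and the other genes of that mean FPKM in grey, and dotted lines at 2-fold lower. All red points lie left of 0, 11 of them beyond the dotted vertical line, and vertically they lie between -0.78 and 0.34.

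The libraries were then compared across the Xist mutation at 1 Smchd1 genotype, using the same 4 libraries, so that these ratios share libraries with those above. In Smchd1 +/+, 26 of 31 members were lower with Xist1lox/+ than with XistdeltaA/+, against 52.3% of genes. Ndrg1, Aldoc and Pfkfb3 were at least 2-fold lower, against 1.40% of genes, none was 2-fold higher (1.73%), and 11 were lower at 1.5-fold (7.22%). The median log2 ratio was -0.38 over the members and -0.02 over all genes.

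In Smchd1 MD1/MD1, 26 members were higher with Xist1lox/+ than with XistdeltaA/+, against 55.6% of genes. Plod2 and Gapdh were at least 2-fold higher, against 0.323% of genes, none was 2-fold lower (2.17%), and 6 were higher at 1.5-fold (1.80%). Plod2 was chosen for its low value in MD1/MD1 XistdeltaA/+, so its place in these counts was fixed by the choice. The median log2 ratio was 0.40 over the members and 0.04 over all genes.

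Each XistdeltaA/+ library was also set against the mean log2 value of both Xist1lox/+ libraries, which leaves out the other XistdeltaA/+ library. Plod2 and Gapdh were at least 2-fold lower in MD1/MD1 XistdeltaA/+ than in that mean, against 0.296% of genes, and the median of the members was -0.40. The place of Plod2 in this count was likewise fixed by the choice. Aldoc and Ndrg1 were at least 2-fold lower in that mean than in +/+ XistdeltaA/+, against 0.950% of genes, with a median of -0.41. The 2-fold count of 11 members thus fell to 2 without either XistdeltaA/+ library, and most of the 11 needed both the high and the low library to pass.

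A fit over all 4 libraries with limma on log2(FPKM + 1), with terms for Smchd1 genotype and Xist mutation and Benjamini-Hochberg adjustment, called 4 genes for Smchd1 genotype (0.0349% of the 11471). It called none of the 30 members other than Plod2, which is given no test. The smallest adjusted p of a member by limma was 0.791, for Pgam1, with an estimate of -0.89 ± 0.16 (SE). Pgam1 had lower values in both MD1/MD1 libraries, which also differed from +/+ in local strain sequence there. At an unadjusted p under 0.05 the fit took 4 of these 30 members (P4ha1, Egln3, Gapdh and Pgam1), against 374 of the 11471 genes (3.26%). On allele-assigned reads, edgeR called 0 of 26 members other than Plod2, with 2 under that unadjusted p, against 328 of 11556 genes (2.84%). For the Xist mutation limma called 0 of the 30 members and 0.00% of genes, with 1 member at an unadjusted p under 0.05, against 368 genes (3.21%). There edgeR called 0 of 26 members, with 1 under that unadjusted p, against 345 of 11556 genes (2.99%). The fit has 1 residual degree of freedom, set by how far the XistdeltaA/+ and Xist1lox/+ ratios disagree, so a change seen with XistdeltaA/+ alone enters it as noise.

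The allele-assigned reads gave the same contrasts from a subset of reads. Reads were listed for 28 of 31 members in at least 1 library. Scaled to each library's sum, their median log2 ratio of MD1/MD1 over +/+ with XistdeltaA/+ was -0.75. Over the 10326 genes of that mean FPKM with such reads it was -0.01. The contrast is the one in which Plod2 chose the set, so these medians carry no test. Plod1, Pgk1 and Pgam1 had no such reads. Several members differed between both readouts. Aldoa had log2 ratios of -1.05 in FPKM and -0.25 in reads. Bnip3 had 635, 0, 0 and 552 reads although its FPKM was 46.2 or more in each library. Gpi1 had 4882, 2205, 2309 and 5694 reads, which gives 8.67, 8.62, 7.46 and 16.0 reads per unit of FPKM. Gapdh had 16 reads or fewer and Eno1 61 or fewer, so both add little to this readout.

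In the XistdeltaA/+ pair, 14 members were read from both alleles (at least 5% paternal and at least 20 reads in each library), and all 14 were lower in MD1/MD1 on both, against 37.7% of 6934 autosomal genes read in the same way. Without Plod2, the exact 95% intervals of both ratios lay below 0 for 12 of 13 members, against 17.8% of those genes, and P4ha2 was the exception on its maternal allele. Intervals narrow with depth, and those genes entered from 20 reads whereas these members had 181 or more, so both shares are not matched. The members were chosen with this contrast known, so these counts describe it and carry no test. The median log2 ratio of these 13 members was -0.87 on the paternal and -0.78 on the maternal allele. Pdk1 had log2 ratios of -1.43 on the paternal and -1.47 on the maternal allele. Those of Aldoc were -2.01 and -1.67, and those of Ndrg1 were -2.40 and -1.36, so that the paternal allele was the lower one in both. In the Xist1lox/+ pair 10 members were read from both alleles, of which 5 were lower in MD1/MD1 on both, against 31.9% of 5822 genes. Both intervals lay below 0 for 0 of the 10, against 5.39% of those genes. The medians there were -0.03 on each allele for the 9 members other than Plod2.

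**Figure D4:**
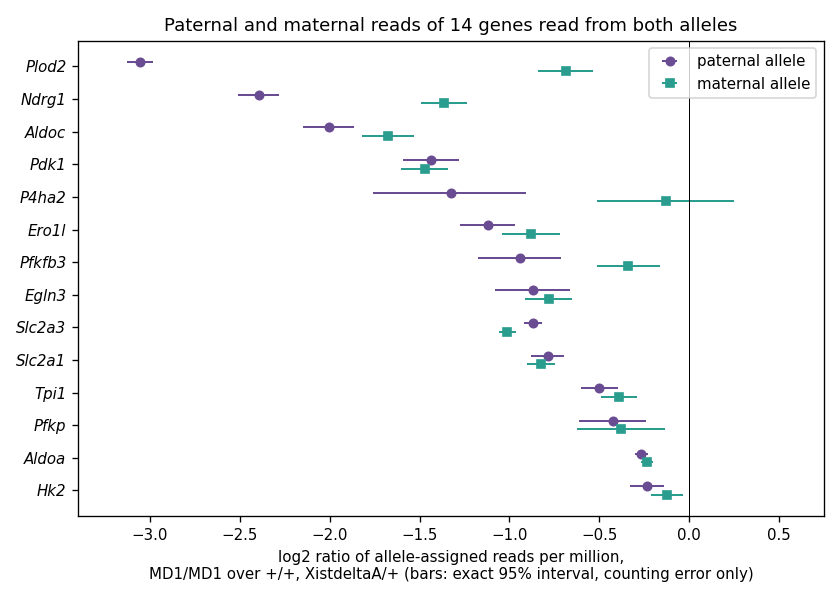
Log2 ratio of allele-assigned reads scaled to each library's sum, MD1/MD1 over +/+ with XistdeltaA/+, for the paternal (circles) and maternal (squares) allele of 14 genes, with exact 95% intervals that cover counting error only. All points lie below 0, and the alleles stand furthest apart for Plod2, P4ha2 and Ndrg1.

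Fisher's exact test (two-sided) on paternal and maternal reads, which compares 2 libraries and not the genotypes, asked which members changed their paternal share within a pair. It was adjusted over all autosomal genes in regions read from both alleles, and Plod2 was left out of the count. In the XistdeltaA/+ pair it called 5 of 13 members, against 15.2% of 6920 genes. Ndrg1 went from 69.6% of 5724 reads to 52.9% of 1466 (adjusted p = 2.07e-30, Fisher's exact test), and both Xist1lox/+ libraries stood at 66.1% and 65.8%. P4ha2 went from 57.3% of 286 reads to 37.0% of 181, with 43.3% and 38.0% in the Xist1lox/+ pair. Pfkfb3 fell from 42.8% to 33.0%, close to its values of 42.8% and 34.1% with Xist1lox/+. Aldoc fell from 55.4% to 49.7%, and Slc2a3 rose from 45.1% of 18612 reads to 47.5% of 9888. In the Xist1lox/+ pair 1 of 9 members was called, against 4.0% of 5846 genes: Egln3 rose from 28.0% of 1404 reads to 35.8% of 1003 (adjusted p = 0.00301, Fisher's exact test).

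The cross left some chromosome regions with maternal-type sequence on both homologues. Accordingly, 16 members had a paternal share under 5% in at least 1 library, as did the genes around most of them, and each was left out of the ratios by allele in a pair where this held for either library. Egln1 was such a case in 3 libraries, and was read from both alleles in MD1/MD1 XistdeltaA/+ alone, at 46.7% of 868 reads. Gpi1 had paternal shares of 0.02%, 46.8%, 42.9% and 0.02%. Where the share changed in this way between libraries, FPKM ratios compare different local strain sequence as well as genotype. The part of strain sequence in those ratios was not tested.

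Other genes of the pathways were taken from fixed lists, and are given by the same 2-fold rule. Of 9 expressed genes of the HIF system (mean FPKM of 1 or more), none passed 2-fold in any of the 4 comparisons. Hif1a, the oxygen-regulated subunit, had an FPKM of 17.4, 30.1, 21.6 and 23.9, highest where most members were lowest. Egln2, the third HIF prolyl hydroxylase, had 21.1, 23.1, 26.7 and 26.6. The median log2 ratio of the HIF list was 0.03 in the XistdeltaA/+ pair, against -0.88 for the members.

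Of 32 other targets of hypoxia, 2 were at least 2-fold lower and 4 at least 2-fold higher in MD1/MD1 with XistdeltaA/+, and their median log2 ratio was -0.01. Ddit4, an inhibitor of mTORC1, had an FPKM of 346, 88.1, 178 and 174, and so followed the pattern of the members. Fam162a, named after its values were seen, had 433, 164, 321 and 273. Hmox1, the heme oxygenase that macrophages also express, had 72.0, 392, 150 and 133. Cxcr4, a chemokine receptor, had 2.91, 11.6, 6.83 and 4.82, so that it and Hmox1 were highest where most members were lowest.

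Of 14 other glycolytic enzymes and transporters, 3 were at least 2-fold lower in MD1/MD1 with XistdeltaA/+ and 1 was higher. Ldhb, lactate dehydrogenase B, had 418, 148, 168 and 209. Eno2, the neuronal enolase, had 14.4, 4.88, 2.65 and 2.28, and Pgm2, which links glycogen and glucose phosphates, had 115, 53.7, 87.0 and 79.6. Eno1b was the higher one, with 0.29, 3.51, 1.03 and 1.28. None of 21 genes of pyruvate dehydrogenase and the TCA cycle passed 2-fold in any comparison, and their median log2 ratio in the XistdeltaA/+ pair was -0.10. The highest expressed were Mdh2, with 256, 273, 339 and 342, and Sdhd, with 183, 170, 190 and 203. None of 7 genes of the pentose phosphate pathway passed 2-fold, with Tkt at 283, 264, 304 and 295 and Taldo1 at 189, 194, 237 and 218.

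Collagens and their crosslinking and folding partners, the substrates and co-workers of Plod2, had higher ratios in the XistdeltaA/+ pair than the members. Of 19 such genes, 7 were at least 2-fold higher in MD1/MD1, against 0 lower, with a median log2 ratio of 0.58. Col3a1 had an FPKM of 3.0, 18.9, 6.36 and 7.55, Col1a2 had 6.34, 26.7, 11.7 and 11.1, and Col1a1 had 9.31, 30.7, 14.2 and 12.7. These 3 also stand among the fibroblast markers, and whether other cells supplied them was not tested. Col4a2, a basement membrane collagen, had 5.69, 16.0, 6.02 and 4.47.

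**Figure D5:**
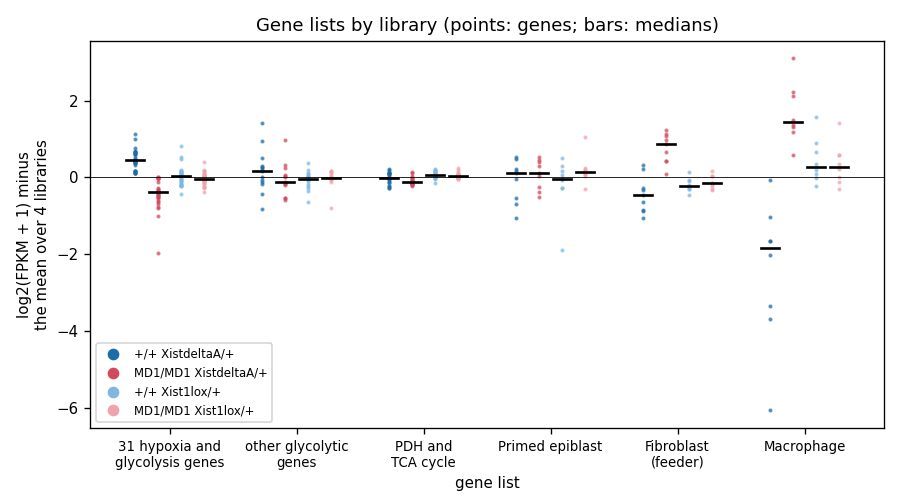
Log2(FPKM + 1) of each gene minus its own mean over the 4 libraries, for the 31 genes and 5 other lists, with points for the expressed genes and black bars for medians. The medians of the 31 genes are 0.44, -0.39, 0.03 and -0.05, whereas the macrophage medians are -1.85, 1.43, 0.26 and 0.28.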

How the data were processed

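RNA-seq of 4 EpiSC libraries was analysed from 1 deposited table of 22686 genes. Per the labels' protocols, TRIzol RNA went into a stranded mRNA kit. The submitters' processing notes name mm9, Cufflinks 2.2.1 and Cuffdiff, with no role. The aligner, the strain variants and the gene models used: not given in the sources used here. Per the file headers, the authors deposited for each gene and library an FPKM, a count of allele-assigned reads and a paternal fraction of those reads. The fraction times the count was a whole number for 100% of values, within 1e-06. The table has 6 more columns, of samples outside the series, which were left out. Reads behind FPKM are not given, so its depth is unknown.

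The members and gene lists were chosen with earlier results of these data known. Genes whose mean FPKM was 1 or more were compared as log2(FPKM + 1), which understates the ratios of low genes. limma 3.58.1 used a trend and Benjamini-Hochberg adjustment, and edgeR 4.0.16 with its quasi-likelihood test ran on the allele-assigned counts as an alternative, since those counts cover variants alone. Fisher's exact test used autosomal genes with at least 20 reads in both libraries, in windows of 10 Mb whose median paternal share was at least 5%. This test and a normal test that set the log odds ratios of both pairs against each other (scipy 1.17.1) were added after the data were seen, and both take reads as independent, which PCR copies are not. limma and Fisher's exact test were tried on simulated data. A planned test of the paternal share of Pgk1 was not run, as it has 0 allele-assigned reads. Named genes were the collagen hydroxylases, members past 2-fold in any comparison, the 6 most abundant members, the X-linked member, expressed neighbours of Plod2, label checks and up to 4 genes of each other list past 2-fold or its 2 highest. Other members are given by their values in all libraries as well. A gene that this rule would name is not reported here. Starts in the table count from 0 and were raised by 1.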

Additional observations from a re-analysis of the deposited data

Results flagged for a closer look

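For 9 members the ratio of MD1/MD1 over +/+ was at least 1.5-fold lower with XistdeltaA/+ but above 1 with Xist1lox/+, as for 532 of the 11471 genes (4.64%). The log2 ratio with Xist1lox/+ exceeded that with XistdeltaA/+ by 2.0 for Aldoc, 1.34 for Gpi1, 1.09 for Pfkl, 1.08 for Slc2a1, 1.08 for Aldoa, 1.07 for Slc2a3, 1.03 for Pgk1, 0.93 for Pfkfb3 and 0.81 for Ankrd37. With 1 library per genotype these differences were not tested. Paternal shares were 0.02%, 46.8%, 42.9% and 0.02% for Gpi1, and 0.03%, 0.21%, 0.04% and 54.9% for Pfkl. Those of Ankrd37 were 0%, 50.3%, 0% and 52.9%. For these members local strain sequence also differed within a pair, and it cannot be told apart from genotype.

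The change of the paternal share differed between the Xist backgrounds for 3 of the 9 members tested, among 515 of 5418 genes, by a two-sided normal test that set both log odds ratios against each other, with Benjamini-Hochberg adjustment over those genes. The adjusted p was 9.05e-14 for Ndrg1, whose share differed by -16.8 points with XistdeltaA/+ and by -0.30 with Xist1lox/+. It was 0.0106 for Egln3 (-1.31 and 7.80 points) and 0.0354 for Aldoc (-5.73 and 1.70 points). The test compares reads of these 4 libraries and not the genotypes. It gains power with depth, which was not matched between the members and the other genes.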

How the results depend on the processing

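With 1 library per genotype, no setting supplies a replicate check, and no paired analysis was possible because each group holds 1 library. Of 100 alternative values, 86 stayed near the reported one (counts within 1.5-fold, medians within 0.1), but some of these could not move. The lowest mean FPKM of a member was 7.17 (Mxi1). Dropping the filter or raising it to a mean FPKM of 5 therefore left all member counts and medians of FPKM ratios unchanged. In the XistdeltaA/+ pair, the count of 11 members 2-fold lower became 10 to 12 under another pseudocount, filter, quantile normalization or median scaling, and 21 at 1.5-fold. In allele-assigned reads it was 11 of 28, but not the same genes. Aldoa, Gapdh and Pgk1 left, and Mxi1, Bnip3 (635 and 0 reads) and Eno1 (61 and 15 reads) entered. Without either XistdeltaA/+ library, the range of the 2-fold count was 2 to 2 and that of the median -0.41 to -0.40 (alternatives chosen after seeing the data). The median of -0.88 was -0.75 in allele-assigned reads. In that readout the members 2-fold lower with Xist1lox/+ than with XistdeltaA/+ in Smchd1 +/+ went from 3 to 5 (11 at 1.5-fold). Gpi1, Bnip3 (635 and 0 reads) and Eno1 (61 and 17 reads) entered that count, and Pfkfb3 left it. Members 2-fold higher with Xist1lox/+ than with XistdeltaA/+ in MD1/MD1 went from 2 to 4 (6 at 1.5-fold). In the Xist1lox/+ pair, the readout gave 2 members 2-fold higher in MD1/MD1 in place of 0 (Bnip3, with 0 and 552 reads, and Gpi1, with 7.46 and 16.0 reads per unit of FPKM), and 1.5-fold gave 1 lower. All 31 members were lower in MD1/MD1 with XistdeltaA/+ under each pseudocount, filter and scaling of FPKM, although a pseudocount or filter could not change the sign of a member. No member other than Plod2, which is given no test, passed limma or edgeR in any setting run. At an unadjusted p under 0.05 there were 0 to 7 members, against 2.65% to 4.27% of genes. The 7 were of 30 members with Smchd1 genotype as the only term in limma, against 4.19% of 11471 genes. The members were chosen with these data known. Without the step on windows, Fisher's exact test called 13 of 24 members with XistdeltaA/+ (36.8% of 9821 genes) and 10 of 24 with Xist1lox/+ (36.5% of 9917), since members read from 1 type of allele then enter. The test of the Pgk1 share was not run. Counting depth limits P4ha2 (181 to 286 reads) and Higd1a (109 to 178 reads) most among the members with allele-assigned reads, apart from Gapdh, Eno1 and Bnip3.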
